A study of Homo sapiens with 18 samples.

Results

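The experiment examined here asked whether the transcriptional response of H1299 cells to AceTAGPCAFGCN5-4 differed between cells with and without induced p53. It comprises 12 of the 18 RNA-seq libraries of the series, in 4 groups of 3, chosen by their labels and not by any measured value. H1299 is an established line from a non-small cell lung cancer, known for making no p53 protein. Cells of the induced groups, by their titles, expressed p53-FKBP12F36V: a doxycycline-inducible fusion of wild-type p53, the binding tag FKBP12F36V and an HA epitope. They were given AceTAGPCAFGCN5-4 or DMSO, the solvent control. The non-induced groups received the same agents, and their titles name no p53 fusion. All 12 libraries come from 1 cell line with the genotype label wt and were collected after 24 h of compound or DMSO. The labels give no dose, do not say whether the non-induced cells carried the transgene or were given doxycycline, do not say whether the line was a single clone, and leave unstated whether the replicates of a group came from separate cultures.

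The tumour suppressor p53 is a transcription factor that binds DNA as a tetramer and switches on genes of cell cycle arrest, apoptosis, DNA repair and metabolism. Several lysines of p53 are acetylated, among them a C-terminal cluster modified mainly by p300 and CBP and a lysine in the linker modified by PCAF, which together with its close relative GCN5 forms another acetyltransferase family. AceTAG compounds are heterobifunctional molecules: one end binds the FKBP12F36V tag and the other binds an acetyltransferase, so that the enzyme is brought to the tagged protein. A response that needs the tagged protein would appear in induced cells and be smaller or missing in non-induced cells. The comparison made here is the effect of the compound in induced cells minus its effect in non-induced cells, called the state difference. It cannot tell a need for the tagged protein apart from any other difference between the states, such as doxycycline if only induced cells were given it.

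Libraries held 19.8 to 29.2 M counts (M, counts divided by 1e+06) in the induced compound group, 22.4 to 24.9 M in the induced DMSO group, 24.3 to 26.6 M in the non-induced compound group and 9.1 to 26.4 M in the non-induced DMSO group. At these depths 3 counts corresponded to 0.103 to 0.331 counts per M (CPM, counts divided by the library's total and multiplied by 1e+06). On the second principal component the third library of the induced DMSO group lay away from the rest, and on the third component so did the third non-induced DMSO library, which was the shallowest. The mitochondrially encoded share of counts was 0.714% in the third induced DMSO library and 1.84% and 2.14% in the other 2 of its group. The keratin KRT18 was at 190.5 to 315 CPM and the filament gene VIM at 2366 to 3880 CPM, both known in H1299. Of 15 genes listed for lung lineage and the H1299 line, only 6 had counts high enough to be tested. KRT18, 1 of these 6, was lower with the compound in induced cells (edgeR adjusted p below 0.05). In any library 10 leukocyte markers summed to at most 0.706 CPM, and 10 endothelial and fibroblast markers to at most 3.14 CPM. PTPRC, the pan-leukocyte antigen, was at 0 in all 12.

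The labels were checked on MDM2, a gene that p53 is known to switch on: its levels were 569 to 833 CPM in the 6 induced libraries and 67.2 to 76.3 CPM in the 6 non-induced libraries, as the labels say.

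Of 15814 genes tested, 11 passed in the state difference (edgeR, Benjamini-Hochberg adjusted p below 0.05), which is 0.0696% of the genes. In 10 of them the compound effect was more positive in induced than in non-induced cells (0.0632%). The other was ANGPTL4, for which it was more negative (0.00632%). Before adjustment 1148 genes had p below 0.05. With no filter on low counts 258 genes passed, 72 of them higher and 186 lower. The median state difference over all tested genes was −0.01 on the log2 scale, and 95% of genes lay between −0.85 and 0.86. The 11 genes include CDKN1A, ZMAT3 and TP53I11 of the arrest and feedback list of p53 targets, TP53I3 and CYFIP2 of the apoptosis list, POLH of the repair list, the matrix and growth factor genes IGFBP3 and VCAN, the lipid transfer gene PLTP and the lipase inhibitor ANGPTL4. Without the third induced DMSO library the count was 24, without the first it was 18, and without each of the other 10 libraries it lay between 8 and 12. These are bulk libraries, so that a change in RNA per cell and a change in the share of cells that express a gene cannot be told apart.

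The stretch just upstream of the transcription start is shown for 3 of these genes because they cover the arrest gene with the lowest p, the one gene with a negative state difference and the gene with the largest positive one. The sequences are RefSeq promoter windows of GRCh38.p14, each 250 bases long and written 5′ to 3′ on the gene's strand, at chr6:36678464-36678713 (plus strand), chr19:8363905-8364154 (plus) and chr7:45921273-45921522 (minus). Capitals mark the GC box GGGCGG in either orientation and the TATA motif TATAAA on the gene's strand.
CDKN1A: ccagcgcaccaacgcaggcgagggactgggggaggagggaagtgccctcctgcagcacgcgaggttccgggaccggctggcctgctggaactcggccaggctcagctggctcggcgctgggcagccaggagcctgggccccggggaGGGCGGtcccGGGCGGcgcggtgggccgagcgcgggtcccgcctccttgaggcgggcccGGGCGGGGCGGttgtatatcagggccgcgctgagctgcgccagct
ANGPTL4: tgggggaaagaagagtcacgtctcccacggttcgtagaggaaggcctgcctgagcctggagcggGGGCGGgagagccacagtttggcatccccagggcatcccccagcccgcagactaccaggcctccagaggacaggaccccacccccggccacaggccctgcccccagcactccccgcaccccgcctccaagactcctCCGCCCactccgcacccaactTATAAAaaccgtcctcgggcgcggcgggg
IGFBP3: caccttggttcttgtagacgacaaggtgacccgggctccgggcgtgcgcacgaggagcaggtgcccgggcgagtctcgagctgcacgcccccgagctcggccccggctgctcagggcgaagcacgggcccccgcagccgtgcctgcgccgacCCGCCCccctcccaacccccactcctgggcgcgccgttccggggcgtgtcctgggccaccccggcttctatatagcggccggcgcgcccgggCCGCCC
The CDKN1A window held 4 GC boxes and no TATAAA, that of ANGPTL4 held 2 GC boxes and 1 TATAAA, and that of IGFBP3 held 2 GC boxes and no TATAAA. These and the other genes described below that passed in the state difference, 10 in all, had 15 windows. A GC box lay in 10 of the 15, against 42.6% of 35116 windows in the genome, and TATAAA lay in 2 of the 15, against 6.80%. The p53 half-site consensus, searched without mismatches, lay in 0 of the 15, against 5.57% of all windows. These are matches of letters only, and the response elements of many p53 targets are known to lie outside such a window.

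**Figure D1:**
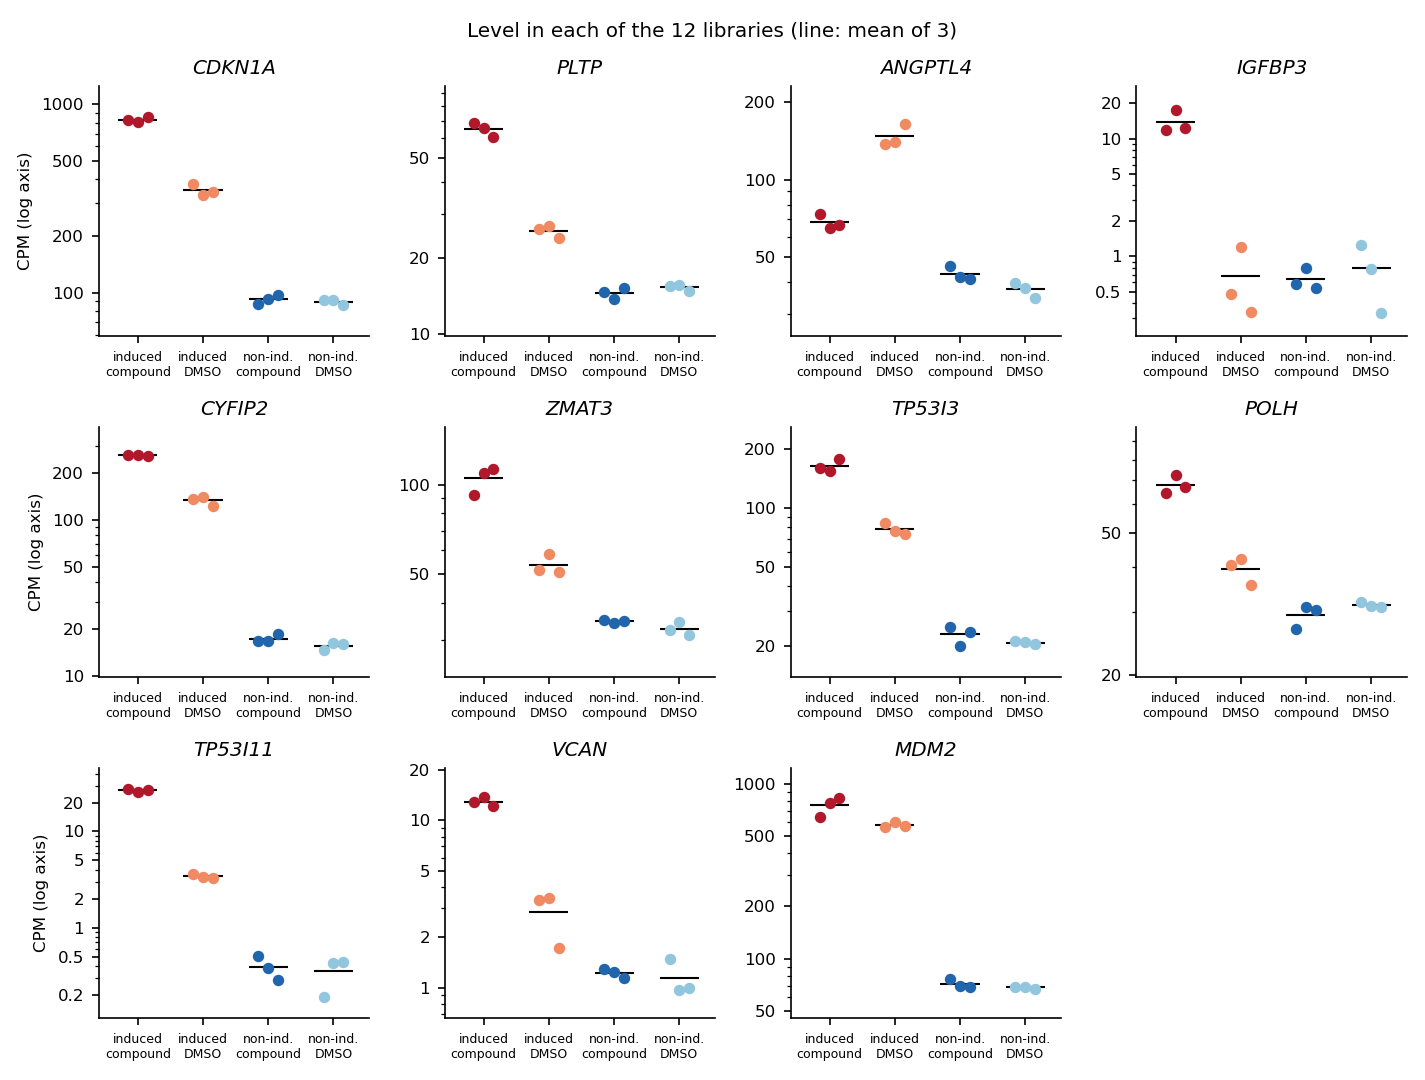
Counts per M in each of the 12 libraries (log axis) for 10 genes that passed in the state difference and for MDM2, which did not, with the 4 groups side by side: induced compound, induced DMSO, non-induced compound and non-induced DMSO. Points are libraries and lines are group means. The induced compound points lie above the induced DMSO points for 9 of the 10 and for MDM2, and below them for ANGPTL4.

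The arrest and feedback genes are described first. CDKN1A, which encodes the cyclin-dependent kinase inhibitor p21 (chr6:36676460-36687339, plus strand, GRCh38), had 829, 806 and 859 CPM in induced compound libraries, against 380.4, 332 and 343 CPM in induced DMSO libraries. It had 87.0, 92.6 and 97.9 CPM in non-induced compound libraries, against 91.3, 91.8 and 85.7 CPM in non-induced DMSO libraries. The induced groups did not overlap and the non-induced groups did. The compound effect was 1.20 ± 0.07 on the log2 scale in induced cells (edgeR adjusted p = 1.05e-07), a 2.30-fold rise, and 0.03 ± 0.07 in non-induced cells (adjusted p = 1, interval −0.12 to 0.18). The state difference was 1.17 ± 0.10 (95% interval 0.96 to 1.38, edgeR adjusted p = 2.69e-05).

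ZMAT3, a zinc-finger RNA-binding protein and p53 target (chr3:178960121-179072215, minus strand), had 92.6, 109 and 113 CPM in induced compound libraries, against 51.6, 58.4 and 50.5 CPM in induced DMSO libraries. It had 34.9, 34.1 and 34.7 CPM in non-induced compound libraries, against 32.4, 34.4 and 31 CPM in non-induced DMSO libraries. Here too the groups were separate in induced cells and overlapped in non-induced cells. Its state difference was 0.87 ± 0.11 (0.62 to 1.11, edgeR adjusted p = 0.00307). TP53I11, a p53-inducible membrane protein (chr11:44885903-44951306, minus strand), had 27.4, 26 and 27.1 CPM in induced compound libraries, against 3.61, 3.39 and 3.31 CPM in induced DMSO libraries. In non-induced cells it was weakly counted, with 13, 10 and 7 counts in compound libraries and 5, 11 and 4 counts in DMSO libraries. The compound effect in induced cells was 7.59-fold, and the state difference was 2.69 ± 0.41 (1.83 to 3.56, edgeR adjusted p = 0.0116). That call depends on single non-induced DMSO libraries: the adjusted p was 0.359 without the second and 0.0543 without the third.

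Other members of the arrest group showed compound effects in induced cells without passing in the state difference. BTG2, an antiproliferative transcriptional cofactor, had 59.3, 59.6 and 62.3 CPM in induced compound libraries, against 29.2, 28.7 and 25.8 CPM in induced DMSO libraries. It had 1.72, 2.25 and 2.34 CPM in non-induced compound libraries, against 1.97, 1.48 and 2.32 CPM in non-induced DMSO libraries. Its effect in induced cells passed (1.07 ± 0.10, edgeR adjusted p = 1.63e-05), and its state difference was 0.89 ± 0.20 (adjusted p = 0.192). MDM2, the ubiquitin ligase that degrades p53, had 648, 776 and 833 CPM in induced compound libraries, against 569, 605 and 571 CPM in induced DMSO libraries. It had 76.3, 70.1 and 69.3 CPM in non-induced compound libraries, against 69.1, 69.2 and 67.2 CPM in non-induced DMSO libraries. MDM2 responded strongly to induction itself, with a log2 fold change of 3.06 ± 0.08 under DMSO. Its compound effect in induced cells was 0.33 ± 0.07 (adjusted p = 0.0511) and its state difference 0.28 ± 0.11 (adjusted p = 0.658), so the groups were separate but neither value passed. SESN1, an inhibitor of TORC1 signalling, had a state difference of 0.71 (adjusted p = 0.17), and PLK3, a stress-activated kinase, 0.10 (adjusted p = 0.87).

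Among 30 measured genes of the arrest and feedback list, 3 were higher and 0 lower in the state difference, and 9 were higher and 0 lower in the compound effect in induced cells. Over all tested genes 0.0632% were called higher in the state difference and 0.696% in the effect in induced cells. The list's median was 0.19 for the state difference, 0.25 for the effect in induced cells and 0.04 for the effect in non-induced cells, beside −0.01, −0.01 and 0.00 over all tested genes.

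In the apoptosis group, TP53I3 and CYFIP2 passed. TP53I3, a quinone oxidoreductase linked to reactive oxygen species (chr2:24077433-24085861, minus strand), had 159.6, 153 and 178 CPM in induced compound libraries, against 84.3, 76.7 and 74.1 CPM in induced DMSO libraries. It had 25, 20 and 23.4 CPM in non-induced compound libraries, against 21, 20.9 and 20.3 CPM in non-induced DMSO libraries. Between the states the effects differed by 0.91 ± 0.12 (0.65 to 1.16, edgeR adjusted p = 0.00307). CYFIP2, a component of the WAVE actin-regulatory complex and a p53-inducible gene (chr5:157266079-157395595, plus strand), had 260.3, 263 and 258 CPM in induced compound libraries, against 137, 141 and 123 CPM in induced DMSO libraries. It had 16.7, 16.9 and 18.5 CPM in non-induced compound libraries, against 14.8, 16.3 and 16.0 CPM in non-induced DMSO libraries. In both states the compound libraries lay above all DMSO libraries, by 0.92 on the log2 scale in induced cells and by 0.13 in non-induced cells, where it did not pass the test. This gave a state difference of 0.79 ± 0.10 (0.57 to 1.01, edgeR adjusted p = 0.00307).

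The death receptor genes gave intermediate values. FAS had 39.3, 49.1 and 45.1 CPM in induced compound libraries, against 26.4, 28.6 and 24.5 CPM in induced DMSO libraries. It had 10.1, 10.7 and 8.46 CPM in non-induced compound libraries, against 9.52, 9.68 and 9.05 CPM in non-induced DMSO libraries. Its effect in induced cells was 0.71 ± 0.10 (edgeR adjusted p = 0.00118) and its state difference 0.68 ± 0.15 (adjusted p = 0.177). TNFRSF10B, which encodes the TRAIL receptor DR5, had 231, 249 and 273 CPM in induced compound libraries, against 171, 159 and 154 CPM in induced DMSO libraries. It had 105, 109 and 106 CPM in non-induced compound libraries, against 100, 100.3 and 96.5 CPM in non-induced DMSO libraries. Its groups were separate in both states, and its state difference of 0.51 ± 0.09 lay just outside the threshold (edgeR adjusted p = 0.0509).

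The BH3-only genes of mitochondrial apoptosis were read next. PMAIP1, which encodes the BH3-only protein NOXA, had 49.4, 55.5 and 53.7 CPM in induced compound libraries, against 74.4, 68.5 and 91.1 CPM in induced DMSO libraries. It had 28, 31 and 29.9 CPM in non-induced compound libraries, against 30.8, 29.4 and 31 CPM in non-induced DMSO libraries. It fell in induced cells, by 0.60 ± 0.10 on the log2 scale (edgeR adjusted p = 0.00428), and its state difference was −0.55 ± 0.14 (adjusted p = 0.378). BBC3, which encodes PUMA, had 18.4, 12.9 and 17.1 CPM in induced compound libraries, against 16.3, 13.7 and 15.1 CPM in induced DMSO libraries. The groups overlapped, and the state difference was −0.17 ± 0.28 (interval −0.78 to 0.43, adjusted p = 0.874). TP53INP1, a stress-induced autophagy and apoptosis gene, had a state difference of 0.38 (adjusted p = 0.658). Of 32 measured genes of the apoptosis and autophagy list, 2 were higher and 0 lower in the state difference, with a median of 0.18 (0.0632% of all tested genes were called higher). In induced cells 7 were higher and 1, PMAIP1, was lower, with a median of 0.17, beside 0.696% higher and 0.158% lower over all tested genes.

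In the repair and metabolism group, POLH passed. It encodes the translesion DNA polymerase eta (chr6:43576150-43615660, plus strand). It had 64.6, 72.3 and 67.1 CPM in induced compound libraries, against 40.6, 42.2 and 35.7 CPM in induced DMSO libraries. It had 26.9, 31.1 and 30.5 CPM in non-induced compound libraries, against 32.1, 31.1 and 30.9 CPM in non-induced DMSO libraries. Induction under DMSO changed POLH by 0.31 on the log2 scale, and its state difference was 0.85 ± 0.12 (0.60 to 1.10, edgeR adjusted p = 0.00482). GLS2, the liver-type glutaminase, had 7.30, 6.56 and 7.21 CPM in induced compound libraries, against 2.17, 1.38 and 1.36 CPM in induced DMSO libraries. It had 1.06, 1.39 and 0.904 CPM in non-induced compound libraries, against 0.759, 0.897 and 0.994 CPM in non-induced DMSO libraries. The effect in induced cells was 4.16-fold (edgeR adjusted p = 3.33e-05), and the state difference of 1.69 ± 0.35 did not pass (adjusted p = 0.131).

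RRM2B, the p53-inducible ribonucleotide reductase subunit, had 277, 339 and 301 CPM in induced compound libraries, against 198, 204 and 185 CPM in induced DMSO libraries. It had 154, 143 and 137 CPM in non-induced compound libraries, against 137, 135 and 133 CPM in non-induced DMSO libraries. Its state difference was 0.52 ± 0.10 (edgeR adjusted p = 0.0641). FDXR, a mitochondrial ferredoxin reductase, had a state difference of 0.11 (adjusted p = 0.918), and GDF15, a secreted stress cytokine, 0.24 (adjusted p = 0.87). ABHD4, a lipid hydrolase of the same list, had 0.91 ± 0.16 (adjusted p = 0.0551). Of 41 measured genes of the repair and metabolism list, 1 was higher and 0 lower in the state difference, with a median of 0.24, and 11 were higher and 0 lower in induced cells, with a median of 0.29. The shares called higher over all tested genes were 0.0632% for the state difference and 0.696% for induced cells.

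**Figure D2:**
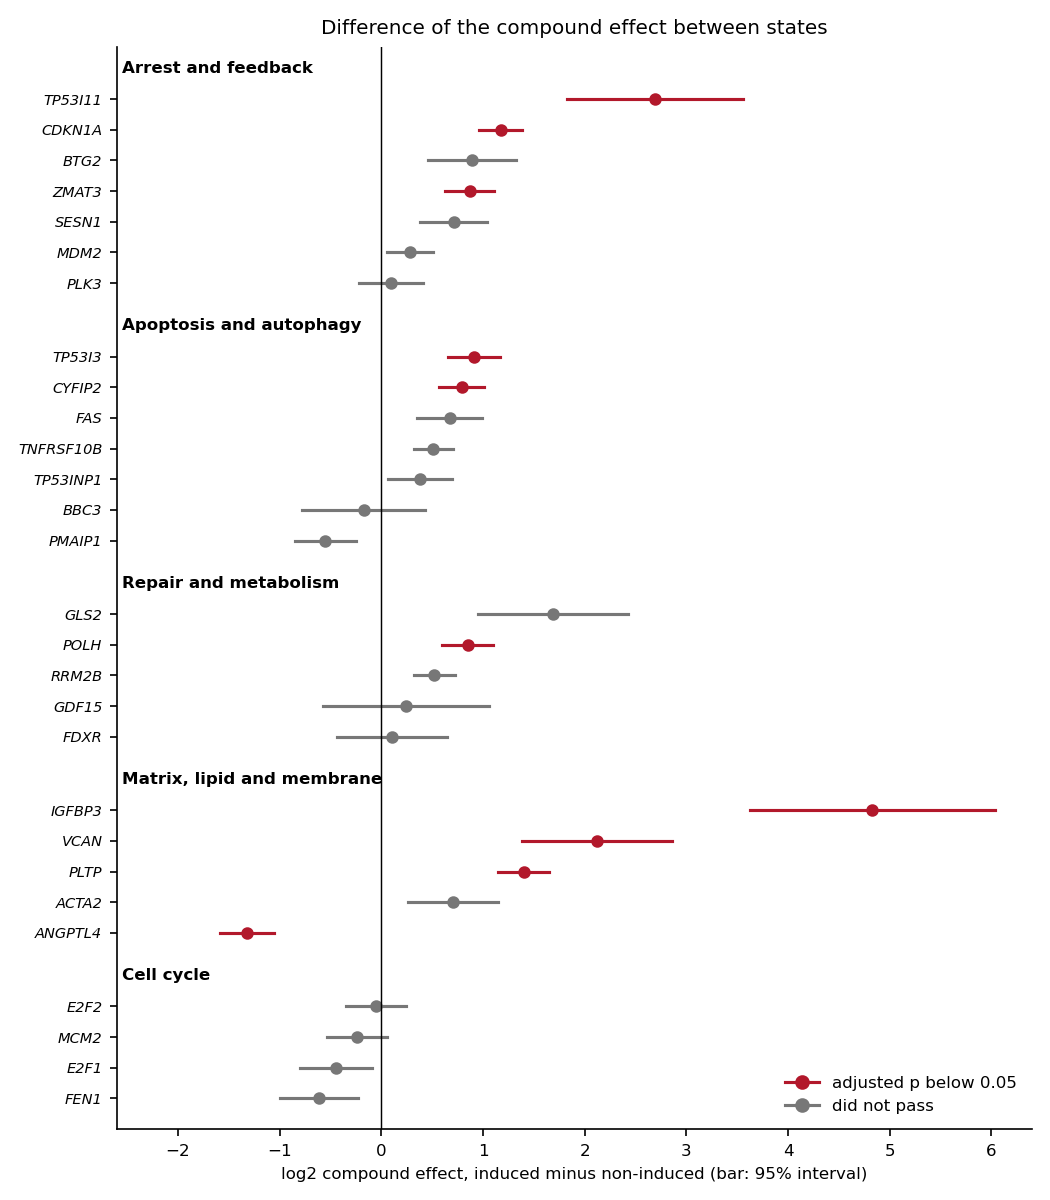
State difference of named genes (log2 compound effect in induced cells minus that in non-induced cells, horizontal axis) with its 95% interval, grouped by role, with red for adjusted p below 0.05 and grey for genes that did not pass. CDKN1A lies at 1.17, MDM2 at 0.28 and BBC3 at −0.17, and ANGPTL4 at −1.32 is the one red point left of 0.

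Read as 1 list, the 103 measured p53 targets had a mean log2 CPM of 5.43 to 5.45 in induced compound libraries, 5.11 to 5.12 in induced DMSO libraries, 4.44 to 4.46 in non-induced compound libraries and 4.36 to 4.44 in non-induced DMSO libraries. The induced groups were far apart relative to their own spread, and the non-induced groups were almost adjacent. Of the 103, 77 had a positive state difference (48.2% of all tested genes had one) and 6 were called higher (0.0632%). In induced cells 27 were called higher (0.696%) and 1 lower (0.158%), with a median effect of 0.23. In a fit of the 6 induced libraries alone 17 of them were called higher, where 51 genes in all were called higher. In non-induced cells the median effect was 0.03, and 62 of the 103 had a positive effect, against 49.4% of all tested genes. The lists are genes known as p53 targets and were drawn up with earlier results of these libraries known, so their direction in induced cells is not independent evidence.

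Other genes that passed lie outside the p53 target lists used here. Absence from these lists does not mean that a gene is not a p53 target. IGFBP3, a secreted binding protein of insulin-like growth factors (chr7:45912245-45921874, minus strand), had 11.8, 17.6 and 12.3 CPM in induced compound libraries, against 0.482, 1.20 and 0.339 CPM in induced DMSO libraries. In non-induced cells it had 15, 21 and 13 counts in compound libraries and 33, 20 and 3 counts in DMSO libraries, or 0.331 to 1.25 CPM. It was thus at most 1.25 CPM in all 9 libraries of the other 3 groups. Induction under DMSO did not pass the test (−0.45 on the log2 scale, edgeR adjusted p = 0.545), whereas the compound effect in induced cells was 4.33. The state difference was 4.83 ± 0.57 (3.63 to 6.03, edgeR adjusted p = 0.00115), the largest of the 11.

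VCAN, the large matrix proteoglycan versican (chr5:83471618-83582303, plus strand), had 12.8, 13.9 and 12.2 CPM in induced compound libraries, against 3.33, 3.43 and 1.74 CPM in induced DMSO libraries. It had 1.29, 1.24 and 1.15 CPM in non-induced compound libraries, against 1.48, 0.975 and 0.994 CPM in non-induced DMSO libraries. Its state difference was 2.12 ± 0.35 (1.38 to 2.85, edgeR adjusted p = 0.0234). This is the least stable of the 11 calls: it passed without each induced DMSO library and did not pass without any 1 of the other 9 (adjusted p 0.0524 to 0.253). ACTA2, smooth muscle actin, rose in induced cells by 1.06 ± 0.12 (edgeR adjusted p = 0.000127) and had a state difference of 0.71 (adjusted p = 0.594). In the list of 23 measured matrix, TGF-beta and contractile genes these 3 were the ones called in induced cells, where 0.696% of all tested genes were called higher, and the list's median state difference was 0.08.

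PLTP, the phospholipid transfer protein of plasma lipoproteins (chr20:45898621-45912155, minus strand), had 68.4, 65.6 and 60.4 CPM in induced compound libraries, against 26.1, 26.7 and 24.0 CPM in induced DMSO libraries. It had 14.7, 13.7 and 15.1 CPM in non-induced compound libraries, against 15.5, 15.6 and 14.8 CPM in non-induced DMSO libraries. The induced groups were separated by more than their spread and the non-induced ones overlapped. The resulting state difference was 1.40 ± 0.12 (1.15 to 1.65, edgeR adjusted p = 2.69e-05). ANGPTL4, a secreted inhibitor of lipoprotein lipase that is known to respond to hypoxia (chr19:8363289-8374370, plus strand), had 73.2, 64.9 and 66.5 CPM in induced compound libraries, against 138, 139.6 and 165 CPM in induced DMSO libraries. It had 45.9, 42.0 and 41.0 CPM in non-induced compound libraries, against 39.8, 37.9 and 34.6 CPM in non-induced DMSO libraries. Its groups were separate in both states and in opposite directions. The effect was −1.15 in induced cells and 0.17 in non-induced cells, where it did not pass the test (interval −0.02 to 0.36). Its state difference was −1.32 ± 0.12 (−1.59 to −1.06, edgeR adjusted p = 7.9e-05). ANGPTL4 was the one gene called in the state difference among 26 measured genes of the hypoxia list, whose median was −0.07. Over all tested genes 0.0696% were called in the state difference.

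Several of these genes overlap a gene on the opposite strand, and whether the counting used strand is not stated. PLTP overlaps CTSA, which averaged 200 CPM and had a state difference of 0.29 (edgeR adjusted p = 0.658). CYFIP2 overlaps ADAM19, TP53I3 overlaps FAM228B, and POLH overlaps GTPBP2, which averaged 69.2 CPM and had a state difference of −0.27. Reads of such partners cannot be told apart without strand.

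The same 4 groups also give the effect of p53 induction with and without the compound, and these values share libraries with the state difference, which equals the gap between them. For CDKN1A the induced over non-induced log2 fold change was 3.12 under the compound and 1.95 under DMSO. For TP53I11 it was 6.04 under the compound and 3.34 under DMSO. For ANGPTL4, by contrast, it was 0.63 under the compound and 1.95 under DMSO. Over all genes 3281 passed under the compound (20.7%; 1505 or 9.52% higher and 1776 or 11.2% lower) and 2731 under DMSO (17.3%; 1309 or 8.28% higher and 1422 or 8.99% lower).

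Within states, 135 genes passed in induced cells (0.854%; 110 or 0.696% higher and 25 or 0.158% lower) and 0 in non-induced cells (0%) in the same edgeR fit. At unadjusted p below 0.05 there were 2630 genes in induced cells and 475 in non-induced cells. For non-induced cells DESeq2 called 1 gene, limma voom 0, and edgeR on the 6 non-induced libraries alone 3. The count for induced cells moved with single libraries: it was 296 without the second induced DMSO library, and 72 and 69 without the second and the third induced compound library. The count of lower genes moved most, between 2 and 154 with 1 library left out, and it was 1 (beside 51 higher) from the 6 induced libraries alone. The 2 states share no library, so the effect of a gene in one can be set beside its effect in the other. Of the 110 genes higher in induced cells, 72 had a positive and 36 a negative effect in non-induced cells, with a median of 0.04, and 5 had an unadjusted p below 0.05 there. Of the 25 genes lower in induced cells, 2 had a positive and 23 a negative effect in non-induced cells, with a median of −0.10. There 4 of the 25 had an unadjusted p below 0.05. Over all 15814 tested genes, 49.4% had a positive effect in non-induced cells and 475 had an unadjusted p below 0.05. Of these 135 genes, 124 did not pass in the state difference, so for them a difference between states was not shown.

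**Figure D3:**
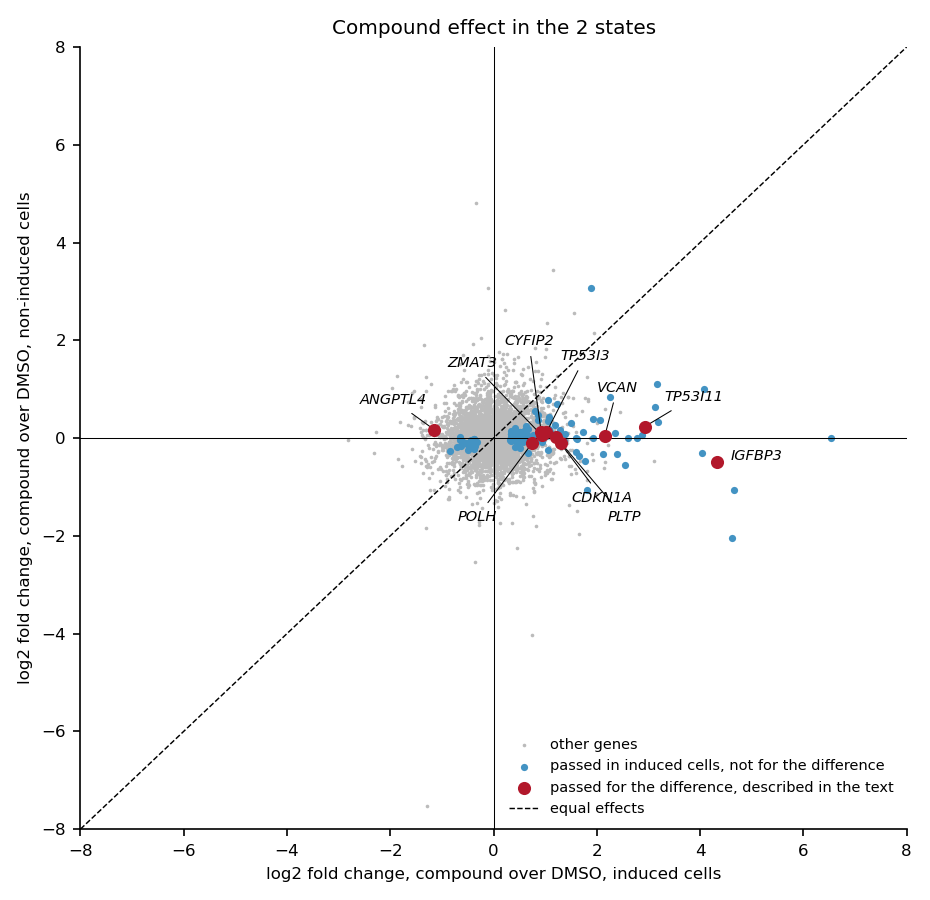
Log2 compound effect in non-induced cells (vertical axis) against that in induced cells (horizontal axis) for tested genes, with genes called in induced cells but not in the state difference in blue, 10 genes called in the state difference in red, and a dashed line of equal effects. The 10 red points lie near 0 on the vertical axis, between −0.50 for IGFBP3 and 0.23 for TP53I11, and away from 0 on the horizontal one.

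Some genes with large effects in induced cells had low counts in other groups and wide intervals for the state difference. SEPTIN4, a septin with a proapoptotic isoform, had 2.19, 2.92 and 3.02 CPM in induced compound libraries, against 0.241, 0.223 and 0.382 CPM in induced DMSO libraries. Its state difference was 2.87 ± 0.69 (1.39 to 4.34, edgeR adjusted p = 0.26). PTCHD4, a patched-domain protein and p53 target, had 5.11, 4.89 and 5.03 CPM in induced compound libraries, against 1.29, 0.937 and 0.636 CPM in induced DMSO libraries. With 3, 1 and 3 counts in non-induced compound libraries and 2, 0 and 3 counts in non-induced DMSO libraries, its state difference was 2.24 ± 1.09 (−0.06 to 4.55). RNF144B, an E3 ubiquitin ligase, had a state difference of 1.43 ± 0.47 that did not pass, although its groups were separate in both states. Among genes lower in induced cells, RFLNA had a state difference of −0.67, NEURL1B of −0.57 and FNDC10 of −0.53, and none of these 3 passed.

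Axon guidance and neural genes were read as another list. Of 33 measured genes of this list, 5 were higher and 0 lower in induced cells, and 0 passed in the state difference, with a median of 0.09. Over all tested genes 0.696% were called higher and 0.158% lower in induced cells, and 0.0696% passed in the state difference. This list too was drawn up with earlier results of these libraries known, so its counts are not independent evidence. PLXNB3, a semaphorin receptor, had 6.41, 6.00 and 6.49 CPM in induced compound libraries, against 0.924, 1.12 and 1.44 CPM in induced DMSO libraries. DRAXIN, a secreted guidance inhibitor, had 6.03, 5.85 and 6.00 CPM in induced compound libraries, against 1.20, 0.669 and 0.636 CPM in induced DMSO libraries. Both were weakly counted in non-induced cells, where they had 1 to 9 counts a library. The state difference was 2.73 ± 0.53 for PLXNB3 (edgeR adjusted p = 0.1) and 2.78 ± 0.73 for DRAXIN (adjusted p = 0.399). NTN1, the guidance cue netrin-1, had 23.5, 21.2 and 27.3 CPM in induced compound libraries, against 11.4, 12.8 and 12.2 CPM in induced DMSO libraries. It had 5.98, 6.50 and 8.18 CPM in non-induced compound libraries, against 7.21, 7.14 and 7.07 CPM in non-induced DMSO libraries, and its state difference was 1.02 ± 0.19 (adjusted p = 0.0579). NSG1 and DPYSL4, which act in neuronal membrane traffic and growth cones, were the other two of the 5, with state differences of 2.07 and 0.93 that did not pass.

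NTN1 and ABHD4 together with MYO6, an actin motor with a state difference of 0.47 ± 0.08 (edgeR adjusted p = 0.0551), stood just outside the threshold. These were named after their values were seen.

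Among proliferation genes, the calls in induced cells were toward lower levels. The 42 measured S phase and replication genes had a mean log2 CPM of 5.05 to 5.23 in induced compound libraries, 5.34 to 5.52 in induced DMSO libraries, 6.22 to 6.39 in non-induced compound libraries and 6.39 to 6.44 in non-induced DMSO libraries. The compound and DMSO groups did not overlap in either state, and the non-induced groups were adjacent. In non-induced cells 0 of the 42 genes were called, as were 0 of all 15814 tested genes. A positive effect was seen in 2 of the 42 in induced cells and 4 of the 42 in non-induced cells. Over all tested genes these shares were 48.3% and 49.4%. The list's median effect was −0.28 in induced cells and −0.14 in non-induced cells. Its median state difference was −0.13, with 0 genes called in either direction (0.0696% of all tested genes were called). In induced cells 6 of the 42 fell, which were E2F1, FEN1, GINS2, MCM2, MCM5 and MCM7 (0.158% of all tested genes were called lower). These calls depend on single libraries: 0 genes were called without the third induced compound library, 2 without the second induced compound library or any 1 non-induced DMSO library, 3 without the third non-induced compound library, and 0 with the 6 induced libraries alone. The third induced DMSO library was the highest of its group for the list (5.52, against 5.34 and 5.39) and for FEN1 (70.7 CPM, against 47.3 and 45.6 CPM), and without it 4 genes of the list were called. MCM2, a subunit of the replicative helicase, had 87.8, 72.7 and 66.1 CPM in induced compound libraries, against 99.2, 98.2 and 112 CPM in induced DMSO libraries. It had 182, 212 and 209 CPM in non-induced compound libraries, against 232, 238 and 237 CPM in non-induced DMSO libraries. MCM2 groups were separate in both states, and its state difference was −0.24 ± 0.14 (interval −0.54 to 0.06, edgeR adjusted p = 0.676).

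E2F1, the transcription factor that drives S phase entry, had 26.2, 17.6 and 22.8 CPM in induced compound libraries, against 30.3, 28.6 and 35.8 CPM in induced DMSO libraries. It had 78.9, 77.2 and 71.7 CPM in non-induced compound libraries, against 82.1, 78.4 and 79.5 CPM in non-induced DMSO libraries. Its state difference was −0.45 ± 0.17 (edgeR adjusted p = 0.658). That of FEN1, the flap endonuclease of lagging-strand synthesis, was −0.61 (edgeR adjusted p = 0.6). The 48 measured mitosis genes had a median effect of −0.13 in induced cells and of −0.15 in non-induced cells, and a median state difference of 0.01. Their mean log2 CPM was 5.96 to 6.11 in induced compound libraries, 6.16 to 6.24 in induced DMSO libraries, 6.74 to 6.93 in non-induced compound libraries and 6.96 to 7.05 in non-induced DMSO libraries. A positive effect was seen in 4 of the 48 in induced cells and 1 of the 48 in non-induced cells, against 48.3% and 49.4% of all tested genes. The 20 recombination and Fanconi anemia genes gave a median state difference of −0.04. In induced cells 2 of them were called lower, FANCG of the Fanconi anemia core complex among them (0.158% of all tested genes were called lower). From the 6 induced libraries alone, 1 gene in all was called lower.

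**Figure D4:**
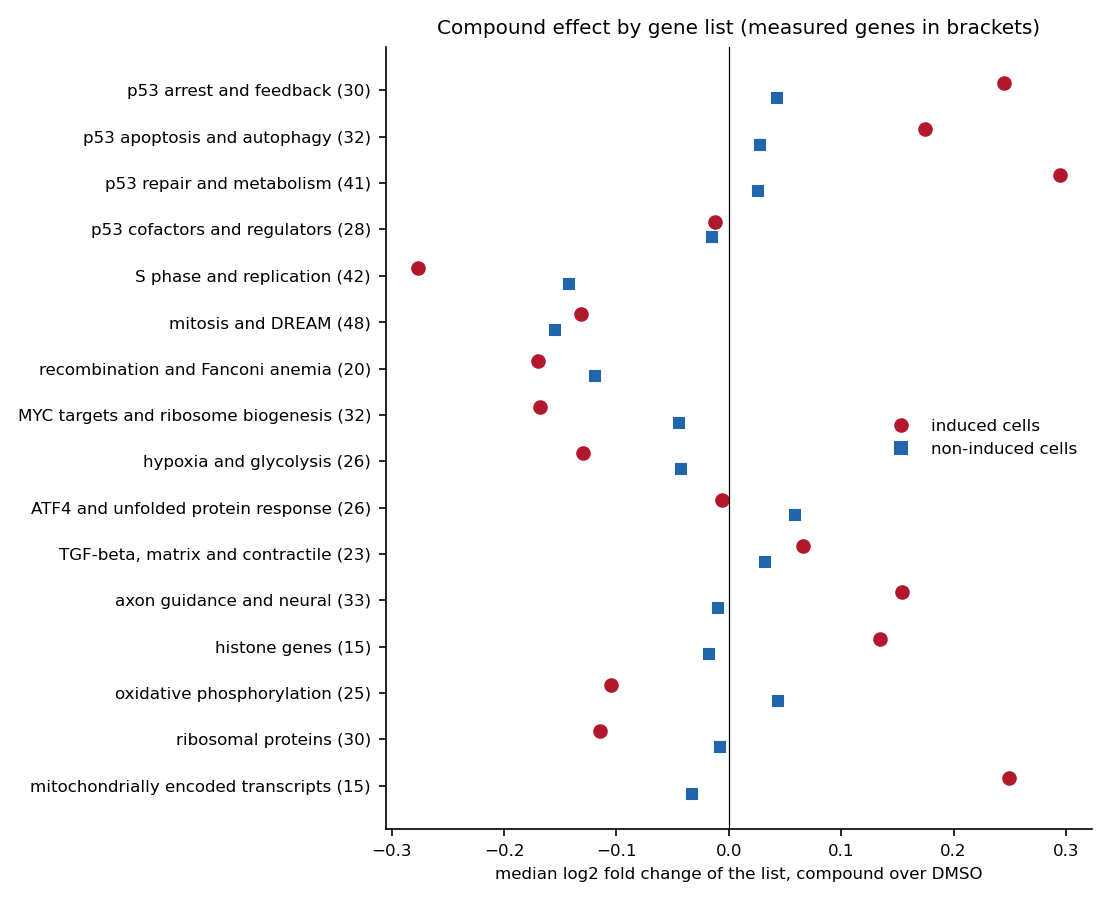
Median log2 compound effect in induced and in non-induced cells for 16 gene lists, with red circles for induced and blue squares for non-induced cells. The 3 p53 target lists lie at 0.25, 0.17 and 0.29 in induced cells and at 0.04, 0.03 and 0.03 in non-induced cells, whereas the mitosis list lies at −0.13 in induced cells and −0.15 in non-induced cells.

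The acetyltransferases named by the compounds were read as well. KAT2A, which encodes GCN5, had a state difference of −0.01, and KAT2B, which encodes PCAF, had one of 0.22. It was 0.19 for EP300, 0.21 for CREBBP and 0.19 for FKBP1A, the gene from whose product the tag derives, and none of them passed (edgeR adjusted p 0.659 to 0.98). Of 28 measured p53 cofactor genes, the median state difference was 0.00.

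The series holds a second compound, AceTAGp300CBP-1, which is labelled with p300 and CBP in place of PCAF and GCN5. Its 6 libraries, 3 induced and 3 non-induced at the same 24 h, were fitted with the other 12 so that the 2 state differences could be compared directly. No dose is given for either compound, so that the doses may differ, and both compounds are set against the same DMSO libraries. In this 18-library fit of 16019 genes, 38 passed in the state difference of AceTAGPCAFGCN5-4 (0.237%) and 218 in that of AceTAGp300CBP-1 (1.36%). For 35 genes the 2 state differences themselves differed (edgeR adjusted p below 0.05, 0.218%), with AceTAGPCAFGCN5-4 more positive in 5 and more negative in 30. This is 1 pair of compounds, with p-values adjusted over all 16019 genes.

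CDKN1A had 829, 806 and 859 CPM with AceTAGPCAFGCN5-4 and 2332, 2451 and 2386 CPM with AceTAGp300CBP-1 in induced cells. Its state difference was 1.18 for AceTAGPCAFGCN5-4 and 2.55 for AceTAGp300CBP-1, a gap of −1.36 ± 0.09 (edgeR adjusted p = 1.13e-08). TP53I3 had 159.6, 153 and 178 CPM with AceTAGPCAFGCN5-4 and 630.2, 635 and 633 CPM with AceTAGp300CBP-1 in induced cells, and the gap was −1.63 ± 0.10 (adjusted p = 3.68e-09). The gap was −0.85 ± 0.11 for PLTP (adjusted p = 0.000222), −0.93 ± 0.15 for FAS (adjusted p = 0.00364) and −1.89 ± 0.40 for TP53I11 (adjusted p = 0.0466). For these 5 genes the response was thus smaller with AceTAGPCAFGCN5-4.

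IGFBP3 did not show such a gap. It had 11.8, 17.6 and 12.3 CPM with AceTAGPCAFGCN5-4 and 15.7, 14.2 and 14.2 CPM with AceTAGp300CBP-1 in induced cells, and the gap in state difference was −0.09 with an interval of −1.16 to 0.97 (edgeR adjusted p = 0.991). ZMAT3 had a gap of −0.04 (−0.25 to 0.17, adjusted p = 0.974) and MDM2 one of 0.08 (−0.13 to 0.28, adjusted p = 0.942). For these 3 genes no difference between compounds was detected, and for each the interval excludes a gap as large as that of CDKN1A. The state difference of MDM2 passed for neither compound. In the 18-library fit it was 0.29 for AceTAGPCAFGCN5-4 (edgeR adjusted p = 0.445) and 0.22 for AceTAGp300CBP-1 (adjusted p = 0.451). ANGPTL4 had a gap of −0.46 (adjusted p = 0.169), CYFIP2 of −0.38 (adjusted p = 0.164), POLH of −0.33 (adjusted p = 0.484) and VCAN of −0.70 (adjusted p = 0.684), and none of these passed.

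**Figure D5:**
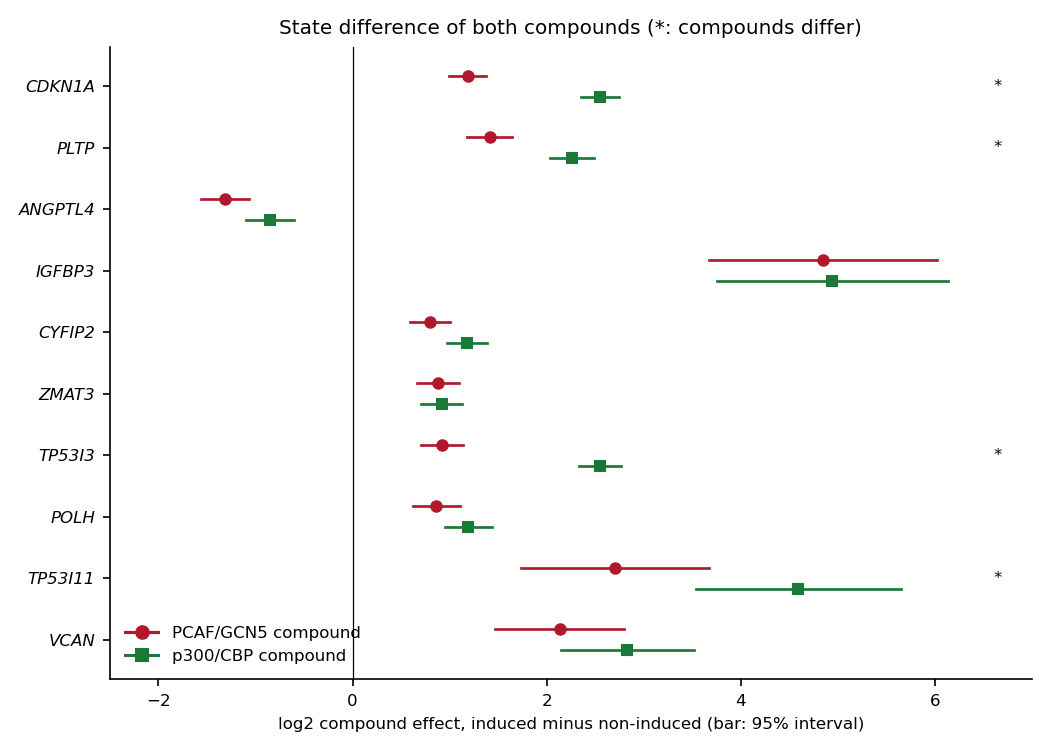
Log2 state difference with its 95% interval for AceTAGPCAFGCN5-4 and AceTAGp300CBP-1 from the 18-library fit, for 10 genes that passed in the state difference of AceTAGPCAFGCN5-4. An asterisk marks the 4 genes whose 2 values differed by the test (adjusted p below 0.05). The values for CDKN1A are 1.18 for AceTAGPCAFGCN5-4 and 2.55 for AceTAGp300CBP-1, whereas those of IGFBP3 and ZMAT3 lie close together.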

How the data were processed

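RNA-seq libraries of total RNA from H1299 cells were examined. The authors deposited whole-number counts per gene and library, and the columns of unnormalized counts were used. The submitters' processing notes name StringTie and DESeq2 without versions, and the aligner, genome build and strand setting are not given in the sources used here. Gene positions are those in the deposited tables: 79.6% of shared identifiers had the same span in GENCODE v29 on GRCh38, and 8 of the 11 genes that passed in the state difference had it. Tables of the 12 libraries held 60623 genes, those of all 18 held 60622, and 60295 identifiers matched a gene name. In the table of non-induced AceTAGp300CBP-1 cells 3 lines could not be used.

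A fit over the 12 libraries in edgeR 4.0.16 (R 4.3.3; TMM scaling, filterByExpr, quasi-likelihood F test, two-sided) gave every contrast, with Benjamini-Hochberg adjustment over 15814 genes and a threshold of 0.05. The procedure was tested on simulated data. Unlike these libraries, the simulated counts held changes in the induced compound group only and no effect of induction. SE was taken as the log2 change divided by the square root of F, and intervals are 95%. The comparison of the 2 compounds used 18 libraries. DESeq2 1.42.0, limma 3.58.1 voom, other filters and scalings, and each library left out in turn were alternatives. CPM values are unscaled by TMM, and a list's level is the mean log2 CPM with 0.5 counts added. The limit that 3 counts give covers counting error only.

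Named genes were the 12 largest state differences each way among those passed with mean CPM of at least 1, list members that passed, a short list given whatever its values, the 10 smallest p, and the 8 largest effects each way in each state. Some items are not reported here, so fewer genes are named than counted. Members and lists were chosen with earlier results of these data known. Where replicates are not separate cultures, p-values measure a spread that may be technical.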

Additional observations from a re-analysis of the deposited data

Results flagged for a closer look

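For the genes below the effect of AceTAGPCAFGCN5-4 differed between induced and non-induced cells by the test of the difference itself (edgeR quasi-likelihood test, adjusted p below 0.05). The values are the effect in induced cells minus that in non-induced cells, on the log2 scale. Among p53 targets of arrest and feedback it was 1.17 for CDKN1A, 0.87 for ZMAT3 and 2.69 for TP53I11. Among the other listed p53 targets it was 0.91 for TP53I3, 0.79 for CYFIP2 and 0.85 for POLH. Of genes outside the p53 target lists used here, IGFBP3 gave 4.83, VCAN 2.12, PLTP 1.40 and ANGPTL4 −1.32. ANGPTL4 was the one gene of these with a negative value: its effect was −1.15 in induced cells and 0.17 in non-induced cells, where it did not pass. IGFBP3 did not pass for induction under DMSO, which gave −0.45, whereas induction under the compound gave 4.38. No cause of these differences was tested.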

How the results depend on the processing

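CDKN1A, PLTP, ANGPTL4, IGFBP3, CYFIP2, ZMAT3, TP53I3 and POLH passed in the state difference, in the same direction, under every alternative run. The count of 11 became 51 with DESeq2, 38 with all 6 groups in 1 fit and 258 with no filter on low counts (72 higher and 186 lower, against 10 higher and 1 lower), of which 252 had a mean CPM of at least 1. The 135 genes of induced cells became 436 with DESeq2 (200 higher and 236 lower), 352 with 6 groups (228 higher and 124 lower), 969 without the filter (282 higher and 687 lower) and 52 from the 6 induced libraries alone (51 higher and 1 lower), against 110 higher and 25 lower. The cause was not tested. In non-induced cells the count of 0 became 1, 8 without the filter and 3 from 6 libraries alone.

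With 1 library left out at a time, 8 to 24 genes passed in the state difference, 69 to 296 in induced cells (67 to 142 higher and 2 to 154 lower), 0 to 2 in non-induced cells, 1656 to 2931 for induction under DMSO and 2421 to 4689 for induction under the compound. List medians of the state difference ranged from 0.19 to 0.24 for p53 targets (0.22 without the filter), −0.22 to −0.091 for MYC targets, −0.18 to −0.05 for S phase genes, −0.031 to 0.082 for mitosis, −0.10 to 0.02 for recombination, −0.18 to −0.060 for oxidative phosphorylation, −0.19 to −0.036 for ribosomal proteins and −0.12 to 0.70 for mitochondrially encoded transcripts. Values near 0 changed sign: GDF15 (−0.14 to 0.42), BBC3 (−0.33 to 0.13), FDXR (−0.045 to 0.43), E2F2 (−0.12 to 0.027), E2F7 (−0.067 to 0.083) and KAT2A (−0.056 to 0.080).

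Leaving out the third induced and the third non-induced DMSO library together was chosen after seeing the data. It left 12 calls in the state difference, 10 of them shared (TP53I11 was lost, adjusted p = 0.0518 in edgeR), and 125 in induced cells. Medians became −0.085 for MYC targets, −0.059 for oxidative phosphorylation and −0.043 for ribosomal proteins, and E2F2 and KAT2A changed sign, with E2F2 at 0.0035 and KAT2A at 0.091. Limma voom called 10 genes, 9 of them shared, without VCAN.

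Same-numbered libraries did not deviate together: 2 of 18 pairs correlated above 0.1, as did 2 of 36 pairs of different numbers. The fit with the replicate number as a block called 12 genes in the state difference, 143 in induced cells and 0 in non-induced cells. Depth limits weakly counted genes, such as PTCHD4 and TP53I11, whose intervals are wide.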

Other observations

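Genes of growth and energy metabolism were read from other lists, and 0 of their members passed in the state difference in the edgeR fit. Over all tested genes 0.0696% passed there, so a count of 0 in lists of this size sets them apart from no other genes. The 32 measured MYC target and ribosome biogenesis genes had a mean log2 CPM of 7.08 to 7.14 in induced compound libraries, 7.22 to 7.36 in induced DMSO libraries, 7.28 to 7.31 in non-induced compound libraries and 7.27 to 7.36 in non-induced DMSO libraries. The induced groups were separate and the non-induced groups overlapped, and the median state difference was −0.19. RRS1, a ribosome assembly factor, was the one gene called lower in induced cells (0.158% of all tested genes were called lower). The median state difference was −0.15 for 30 ribosomal proteins, −0.14 for 25 nuclear genes of oxidative phosphorylation and 0.16 for 15 histone genes. Without the third induced DMSO library the medians were −0.091 for MYC targets, −0.036 for ribosomal proteins and −0.060 for oxidative phosphorylation.

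The 15 mitochondrially encoded transcripts had a mean log2 CPM of 8.91 to 9.79 in induced compound libraries, 7.65 to 9.63 in induced DMSO libraries, 8.83 to 9.75 in non-induced compound libraries and 9.28 to 9.57 in non-induced DMSO libraries. Their median state difference was 0.31, and −0.12 without the third induced DMSO library.

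Stress and signalling lists were read beside a share of 0.854% called over all tested genes in induced cells. EGR2, an immediate early transcription factor, was the one called of 31 immediate early and MAPK feedback genes, and SESN2, also a p53 target, the one called of 26 genes of the ATF4 and unfolded protein response, both higher. Of 15 interferon response genes, 20 NRF2 and iron genes, 23 sterol and fatty acid genes and 12 heat shock genes, 0 passed in either state.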
